A study of Mus musculus with 12 samples.

Results

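The genes described here are 57 mouse genes of DNA damage signalling and repair, chosen by symbol from the 57180 gene rows of the count table: the kinases that sense damage, the proteins that gather at breaks, and the factors of each repair pathway. Of the 57, 56 passed the filter on low counts and were tested among 14362 genes. The exception was Mgmt, the methyltransferase that removes alkyl groups directly from guanine. Mgmt had 0 counts in all 3 KPC 8 Gy libraries, in all 3 KPC control libraries and in all 3 MB49 8 Gy libraries, and 3 counts in all in the MB49 controls (0.0363, 0 and 0.0868 CPM), so no fold change is given for it.

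RNA was sequenced from 2 mouse tumour cell lines grown in DMEM: KPC, a pancreatic ductal adenocarcinoma line, and MB49, a bladder cancer line. The 4 groups of 3 libraries were KPC given 8 Gy of radiation, KPC control, MB49 given 8 Gy and MB49 control, and the labels give the genotype WT for all of them. Irradiated cells were in culture for 48 h. The labels are silent on how long the controls were cultured, and time in culture and radiation cannot be told apart. The series concerns nanovesicles of senescent tumour cells as an aid to radiotherapy. Its design text speaks of senescent cells, but no library label does. The labels do not say whether replicate libraries are separate cultures, so p-values measure the spread between these libraries, which may be technical.

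A double-strand break is sensed by the MRE11-RAD50-NBS1 (MRN) complex, which activates the kinase ATM, while the DNA-PK kinase is recruited by the Ku proteins and ATR by single-stranded DNA. These kinases signal through CHK1 and CHK2 to arrest the cell cycle. Breaks are then closed by non-homologous end joining, by homologous recombination, which needs a sister chromatid and so works in S and G2 phase, or by the error-prone polymerase theta route. Crosslinks, mismatches, bulky lesions and damaged bases have pathways of their own. Much of the damage response acts through protein modification, and mRNA levels do not report it. Many recombination and Fanconi anaemia genes are transcribed mainly in cycling cells, and bulk RNA cannot tell fewer cycling cells from less RNA per cell.

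Library totals ran from 19005991 to 26337928 counts. MB49 control replicate 3 stood somewhat apart from its group (correlation of log2 CPM with the other MB49 controls 0.979 and 0.981, against 0.992 between those). KPC control replicate 1 had 5.11% of its counts on the ribosomal RNA gene Rn18s-rs5, against 0.141 to 0.547% in the other 11 libraries. Calls of members that were lost without 1 library are given with that library. The lines were checked against markers of their tissue. Of the 6 urothelial markers, the uroplakin Upk2 was at 0 in all 6 MB49 libraries, Upk1b and Upk3a were at 0 in the MB49 controls, and the summed urothelial level was 4.58 to 5.35 CPM after 8 Gy and 12.7 to 16.5 CPM in MB49 controls. In KPC the urothelial markers summed to 14.4 to 15.3 CPM after 8 Gy and 14.6 to 19.2 CPM in controls. The urothelial sum was thus no higher in MB49 than in KPC. The 6 pancreatic duct markers summed to 628 to 712 CPM after 8 Gy and 333 to 359 CPM in KPC controls, with Cftr at 0 in both. In MB49 the duct markers summed to 138 to 192 CPM after 8 Gy and 149 to 179 CPM in controls. The 4 epithelial markers summed to 2953 to 3306 CPM after 8 Gy and 706 to 805 CPM in KPC controls, and to 2689 to 3521 CPM after 8 Gy and 2261 to 2731 CPM in MB49 controls, with Epcam at 0 in the irradiated MB49 libraries. Among the 6 immune markers Ptprc was at 0 in every KPC library and in the MB49 controls; their sum of 213 to 231 CPM after 8 Gy and 2.47 to 2.91 CPM in KPC controls, and of 427 to 518 CPM after 8 Gy and 57.5 to 71.2 CPM in MB49 controls, was nearly all Cd68. The 5 fibroblast and endothelial markers summed to 81.9 to 102 CPM after 8 Gy and 166 to 209 CPM in KPC controls, and to 45.3 to 47.7 CPM after 8 Gy and 19.8 to 33.8 CPM in MB49 controls, and the mesenchymal gene Vim had 8688 to 8912 CPM after 8 Gy and 653 to 688 CPM in KPC controls, and 10209 to 12026 CPM after 8 Gy and 2878 to 3737 CPM in MB49 controls. The part of these marker shifts in the repair genes' results was not tested.

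In KPC, 25 of the 56 rose after 8 Gy and 10 fell, and in MB49 18 rose and 20 fell. A gene was called at an adjusted p under 0.05 over all genes tested. Over all genes tested, 63.3% were called in KPC (31.3% higher, 32.0% lower) and 66.9% in MB49 (35.3% higher, 31.6% lower), so most of the transcriptome differed between irradiated and control libraries. The members' share called, 62.5% in KPC and 67.9% in MB49, lay near that background. By direction, 44.6% of the members were higher in KPC and 17.9% lower. A change of at least 2-fold was called for 14 members higher and 4 lower in KPC, beside 35.0% of all genes in either direction, and for 9 higher and 8 lower in MB49, beside 38.1%. The median log2 fold change of the members was 0.30 in KPC, beside -0.01 over all genes tested, and -0.03 in MB49, beside 0.04. When libraries were scaled by their totals alone, the median of all genes moved to -0.39 in KPC and -0.23 in MB49; the members then counted 17 higher and 21 lower in KPC and 14 higher and 26 lower in MB49, and their median was then 0.32 above that of all genes in KPC and 0.09 below it in MB49. Irradiated and control libraries did not overlap in 41 of the 56 members in KPC (73.2%), beside 69.7% of all genes tested, and in 39 in MB49 (69.6%), beside 67.3%. Of the called members, 3 in MB49 (Rbbp8, Brca1 and Dclre1c) and none in KPC had overlapping libraries.

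**Figure D1:**
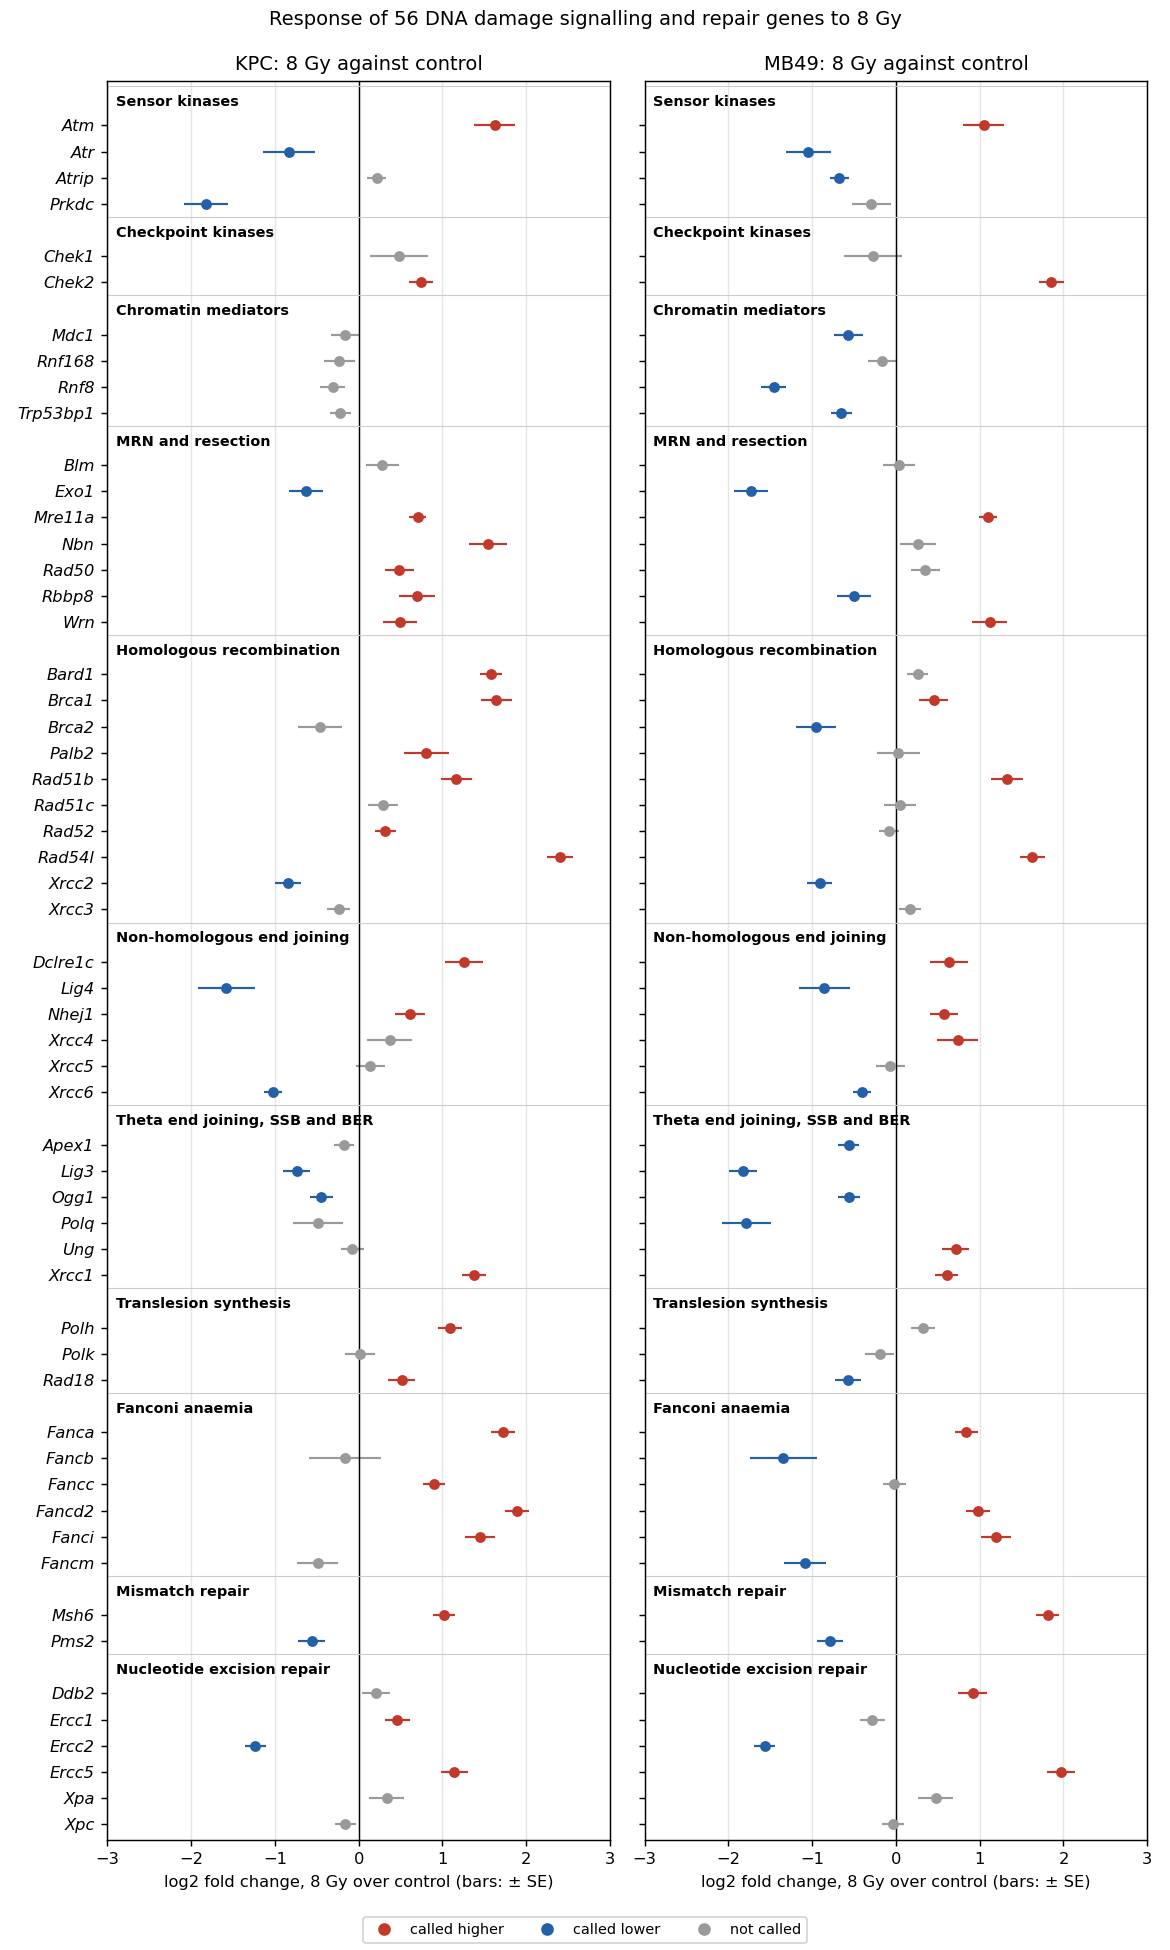
Log2 fold change (x axis, 8 Gy over control, bars are the SE) of the 56 tested genes in rows grouped by role, with KPC in the left panel and MB49 in the right panel. Red points were called higher, blue points called lower and grey points not called; Rad54l has the largest rise in KPC (2.40) and Ercc5 in MB49 (1.97).

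Taken by direction, 15 members rose in both lines: Atm, Chek2, Mre11a, Brca1, Rad51b, Rad54l, Xrcc1, Nhej1, Dclre1c, Fanca, Fancd2, Fanci, Wrn, Msh6 and Ercc5. Another 9 fell in both: Atr, Xrcc2, Xrcc6, Lig3, Lig4, Pms2, Ercc2, Ogg1 and Exo1. Rbbp8 and Rad18 rose in KPC and fell in MB49, and no member did the reverse. A further 8 rose with a call in KPC only and 1, Prkdc, fell with a call in KPC only, while 3 were called higher and 9 lower in MB49 only. A call in 1 line alone is no difference between the lines, which was tested by itself and is given further on. The remaining 9 members were called in neither line: Chek1, Rnf168, Rad51c, Xrcc3, Xrcc5, Polk, Blm, Xpa and Xpc. Shares of all genes tested with the same pair of calls were not computed, so whether these joint counts are unusual cannot be told.

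The members whose transcription is tied to cycling cells were set beside genes of proliferation. Of 17 such members, 8 rose and 2 fell in KPC (median 0.48), and 7 rose and 7 fell in MB49 (median 0.04). The other 39 members tested counted 17 higher and 8 lower in KPC (median 0.29), and 11 and 13 in MB49 (median -0.04). Shares of all genes tested were 31.3% higher and 32.0% lower in KPC, and 35.3% and 31.6% in MB49. Of 22 proliferation genes, 17 rose and 2 fell in KPC (median 0.80), and 9 rose and 3 fell in MB49 (median 0.19). Ccnb1, the mitotic cyclin B1, had 111 ± 8.37 CPM after 8 Gy and 10.7 ± 0.421 CPM in controls in KPC (mean ± SD, n = 3 each, as for all such values), and 68.8 ± 3.85 CPM after 8 Gy and 55.9 ± 4.97 CPM in controls in MB49. Mki67, the proliferation antigen, had 34.2 ± 9.72 CPM after 8 Gy and 11.2 ± 0.345 CPM in controls in KPC, and 52.1 ± 12.7 CPM after 8 Gy and 56.2 ± 16.1 CPM in controls in MB49. The KPC controls thus had the lowest levels of both genes among the 4 groups. Whether the level of cycling cells in the controls carries the repair genes' fold changes was not tested.

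Promoter windows were read for members that moved strongly within that list. Of the 57 genes, 47 had a window in RefSeq (build GRCm38.p6, 250 bases before to 50 after the annotated start), and among the 17 members of the cycling list 14 did. The first 4 of the 14 by size of called change are shown, because they include the largest rise in KPC (Rad54l), the largest fall on the list in MB49 (Polq) and a gene with an E2F form (Msh6). Capitals mark 3 motifs searched on both strands: 4 forms of the E2F site (TTTCCCGC, TTTCGCGC, TTTGCCGC and TTTGGCGC), the CHR element (TTTGAA) of G2/M genes and the CCAAT box (CCAAT). No marked motif overlaps another in these windows. Rad54l has 2 annotated starts 1 base apart, and the first window is printed.
Rad54l (chr4:116123641-116123940, minus strand): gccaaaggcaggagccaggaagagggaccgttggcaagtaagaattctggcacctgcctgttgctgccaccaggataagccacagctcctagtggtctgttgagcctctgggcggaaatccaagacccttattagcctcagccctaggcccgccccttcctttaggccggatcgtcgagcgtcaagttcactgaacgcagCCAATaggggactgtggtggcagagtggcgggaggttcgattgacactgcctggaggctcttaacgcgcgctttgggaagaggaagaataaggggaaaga
Msh6 (chr17:87974800-87975099, plus strand): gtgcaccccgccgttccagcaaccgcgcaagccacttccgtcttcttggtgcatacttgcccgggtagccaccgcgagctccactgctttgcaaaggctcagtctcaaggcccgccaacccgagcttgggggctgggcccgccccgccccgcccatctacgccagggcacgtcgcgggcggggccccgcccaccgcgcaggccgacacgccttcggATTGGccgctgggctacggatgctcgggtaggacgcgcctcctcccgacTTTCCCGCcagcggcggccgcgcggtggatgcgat
Polq (chr16:37011536-37011835, plus strand): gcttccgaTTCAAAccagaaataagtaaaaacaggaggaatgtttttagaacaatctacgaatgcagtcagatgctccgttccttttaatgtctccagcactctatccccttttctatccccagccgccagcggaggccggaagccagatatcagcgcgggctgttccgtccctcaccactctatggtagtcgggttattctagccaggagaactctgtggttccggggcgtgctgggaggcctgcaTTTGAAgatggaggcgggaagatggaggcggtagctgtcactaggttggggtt
Fanca (chr8:123318527-123318826, minus strand): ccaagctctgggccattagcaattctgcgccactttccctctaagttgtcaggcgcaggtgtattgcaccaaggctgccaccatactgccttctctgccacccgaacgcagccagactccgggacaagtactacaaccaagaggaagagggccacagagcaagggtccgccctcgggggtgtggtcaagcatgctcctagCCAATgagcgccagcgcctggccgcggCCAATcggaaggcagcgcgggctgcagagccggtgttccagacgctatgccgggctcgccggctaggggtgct

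An E2F form was present in 7 of the 47 members with a window (14.9%: Chek2, Mdc1, Brca2, Bard1, Rad51c, Xrcc6 and Msh6), beside 2.61% of all 27025 genes in the promoter table. The shares of all genes in this paragraph include genes not tested here, and shares among the genes tested were not computed. Within the cycling list it was 3 of 14, Brca2, Bard1 and Msh6. The 7 genes did not share a direction: in KPC Chek2, Msh6 and Bard1 rose and Xrcc6 fell, and in MB49 Chek2 and Msh6 rose and Mdc1, Brca2 and Xrcc6 fell. A CHR element was in 10.6% of members' windows by gene, beside 20.2% of all genes, and a CCAAT box in 57.4%, beside 41.1%. In the windows printed, Msh6 holds 1 E2F form and 1 CCAAT box, Polq 2 CHR elements, Fanca 2 CCAAT boxes and Rad54l 1 CCAAT box. A match is a run of letters and not a measured binding site.

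For 27 of the 57 members, exons overlap those of another gene in GENCODE vM21, on the opposite strand for 24. The kit keeps strand, but how counting treated strand is not stated in the sources used here, so reads of such pairs cannot be told apart. Shared exonic bases made up 61.7% of Apex1 (with Pip4p1), 25.1% of Lig3 (with Rffl), 24.6% of Ercc2 (with the antisense gene Gm26852, and 17.8% with Klc3), 23.8% of Ddb2 (with Acp2) and 16.0% of Atrip (with Trex1, on the same strand). They made up 16.4% of Fancc (with Gm16133), 16.0% of Fanci (with Polg), 15.4% of Rad54l (with Lrrc41), 15.04% of Trp53bp1 (with Tubgcp4), 13.2% of Rnf8 (with Gm28043, on the same strand), 10.6% of Ogg1 (with Camk1) and 10.5% of Fanca (with Zfp276). Values of all 27 genes are uncertain for that reason. In the MB49 controls Lrrc41 had 100.4 CPM and Polg 96.2 CPM, far above Rad54l and Fanci. The log2 fold changes of Lrrc41 were 0.39 in KPC and -0.35 in MB49, and those of Polg -0.72 in KPC and -0.79 in MB49. Partners did not always move with the member: Rffl had log2 fold changes of 0.68 in KPC and 0.87 in MB49, and Pip4p1 had 0.98 in KPC and 0.72 in MB49. Trex1 had 2.67 in KPC and 0.59 in MB49, beside 0.22 and -0.68 for Atrip. The part of Trex1 reads in the Atrip values was not tested.

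Among the apical kinases, Atm rose in both lines and Atr fell in both. Atm, the kinase of double-strand breaks, had 9.68, 11.1 and 5.78 CPM after 8 Gy, against 2.04, 3.11 and 3.47 CPM in the controls in KPC (log2 fold change ± SE 1.62 ± 0.25, adjusted p = 1.83e-05). In MB49 it had 5.98, 4.68 and 5.74 CPM after 8 Gy, against 2.87, 2.79 and 2.26 CPM in the controls (1.05 ± 0.25, adjusted p = 0.00138). The irradiated libraries lay above the controls in both lines. Atr, the kinase of stalled forks, had 1.04, 1.82 and 1.03 CPM after 8 Gy, against 2.54, 2.62 and 1.88 CPM in the controls in KPC (-0.83 ± 0.31, adjusted p = 0.0259). MB49 libraries had 4.55, 2.80 and 2.94 CPM after 8 Gy, against 8.17, 8.21 and 4.69 CPM in the controls (-1.05 ± 0.27, adjusted p = 0.00254). All irradiated Atr values were below all controls of the same line. The KPC call for Atr was lost without any 1 of KPC 8 Gy replicates 1 or 3 or KPC control replicates 1 or 2 (log2 fold changes -0.69 to -0.76, adjusted p 0.0772 to 0.102). Its partner Atrip had 23.5 ± 1.31 CPM after 8 Gy and 20.2 ± 0.512 CPM in controls in KPC (0.22 ± 0.11, adjusted p = 0.101) and fell in MB49, with 13.3 ± 0.844 CPM after 8 Gy and 21.3 ± 0.454 CPM in controls (-0.68 ± 0.11, adjusted p = 5.25e-05).

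Prkdc encodes the catalytic subunit of DNA-PK, which is recruited to broken ends by Ku. In KPC it had 1.59, 2.21 and 1.37 CPM after 8 Gy, against 4.49, 6.66 and 7.35 CPM in the controls (-1.82 ± 0.26, adjusted p = 9.59e-06), the largest fall of any member in that line. In MB49 the values were 5.24, 4.24 and 5.88 CPM after 8 Gy, against 6.72, 7.51 and 4.56 CPM in the controls, and the groups overlapped (-0.29 ± 0.24, adjusted p = 0.283). Prkdc has the longest deposited gene length of the members, 12647 bases. Its KPC level after 8 Gy rests on 107 counts over 3 libraries.

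Of the checkpoint kinases, Chek2 rose in both lines and Chek1 was called in neither. Chek2, the effector kinase below ATM, had 13.2, 13.3 and 13.9 CPM after 8 Gy, against 3.12, 4.14 and 3.95 CPM in the controls in MB49 (1.85 ± 0.15, adjusted p = 9.38e-09). In KPC it had 14.1, 14.96 and 14.6 CPM after 8 Gy, against 9.24, 8.80 and 8.01 CPM in the controls (0.75 ± 0.14, adjusted p = 0.000194). Every irradiated library was above every control, and the MB49 controls were the lowest group. Chek1, the effector below ATR, had 1.98, 2.65 and 1.72 CPM after 8 Gy, against 1.75, 1.83 and 0.980 CPM in the controls in KPC (0.48 ± 0.35, adjusted p = 0.244). MB49 libraries had 1.73, 1.01 and 2.94 CPM after 8 Gy, against 2.25, 2.75 and 1.87 CPM in the controls (-0.27 ± 0.34, adjusted p = 0.497), and its libraries overlapped in both lines. Chek1 values rest on 114 to 180 counts per group.

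Of the 4 mediators that mark chromatin at breaks, 3 fell in MB49, beside 31.6% of all genes. None was called in KPC, where 63.3% of all genes were. Rnf8, the ubiquitin ligase that starts histone ubiquitination at breaks, had 5.70, 8.15 and 6.30 CPM after 8 Gy, against 18.9, 17.3 and 19.5 CPM in the controls in MB49 (-1.46 ± 0.15, adjusted p = 1.79e-07). KPC libraries had 10.1, 10.02 and 11.1 CPM after 8 Gy, against 13.7, 12.5 and 12.5 CPM in the controls (-0.31 ± 0.15, adjusted p = 0.0751). The irradiated KPC values were also below the KPC controls, without a call. Trp53bp1, which shields ends from resection, had 51.7, 48.0 and 44.0 CPM after 8 Gy, against 75.9, 80.7 and 69.2 CPM in the controls in MB49 (-0.65 ± 0.13, adjusted p = 0.000216). KPC libraries had 45.4, 45.7 and 41.8 CPM after 8 Gy, against 42.5, 53.7 and 58.4 CPM in the controls (-0.22 ± 0.13, adjusted p = 0.144). The irradiated MB49 libraries of both genes lay below the MB49 controls, and KPC libraries overlapped for Trp53bp1. Mdc1, the scaffold that reads phosphorylated H2AX, had 48.9, 47.6 and 39.3 CPM after 8 Gy, against 77.0, 73.9 and 50.3 CPM in the controls in MB49 (-0.57 ± 0.18, adjusted p = 0.00863). KPC libraries had 56.9, 50.6 and 60.4 CPM after 8 Gy, against 48.2, 61.6 and 77.5 CPM in the controls (-0.16 ± 0.17, adjusted p = 0.444). The Mdc1 call in MB49 was lost without MB49 8 Gy replicate 3 (log2 fold change -0.47, adjusted p = 0.0511). Rnf168, the ligase below RNF8, had 5.01 ± 0.143 CPM after 8 Gy and 5.89 ± 0.380 CPM in controls in KPC (-0.23 ± 0.18, adjusted p = 0.283) and 10.6 ± 2.99 CPM after 8 Gy and 11.9 ± 0.451 CPM in controls in MB49 (-0.17 ± 0.17, adjusted p = 0.407).

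Of the 7 genes of the MRN complex and end resection, 5 rose and 1 fell in KPC, beside 31.3% and 32.0% of all genes. In MB49 2 rose and 2 fell, beside 35.3% and 31.6%. The difference between the lines was tested gene by gene below. Nbn, the subunit that binds ATM, had 5.11, 6.59 and 6.75 CPM after 8 Gy, against 2.50, 1.91 and 1.92 CPM in the controls in KPC (1.54 ± 0.23, adjusted p = 1.44e-05). MB49 libraries had 5.81, 4.97 and 8.12 CPM after 8 Gy, against 4.29, 6.16 and 5.34 CPM in the controls (0.26 ± 0.21, adjusted p = 0.289). The KPC groups were far apart, and the MB49 groups overlapped. Mre11a, the nuclease, was the most abundant of the 3 subunits and rose in both lines, with 67.3 ± 1.45 CPM after 8 Gy and 41.3 ± 1.87 CPM in controls in KPC (0.70 ± 0.10, adjusted p = 1.18e-05) and 71.5 ± 1.03 CPM after 8 Gy and 33.4 ± 2.19 CPM in controls in MB49 (1.10 ± 0.10, adjusted p = 5.86e-08). Rad50 had 16.6 ± 3.23 CPM after 8 Gy and 11.9 ± 0.755 CPM in controls in KPC (0.49 ± 0.17, adjusted p = 0.0213) and 20.1 ± 3.88 CPM after 8 Gy and 15.7 ± 2.57 CPM in controls in MB49 (0.35 ± 0.17, adjusted p = 0.0786). Its KPC call was lost without any 1 of KPC 8 Gy replicate 2 or KPC control replicate 1 (log2 fold changes 0.32 to 0.45, adjusted p 0.0735 to 0.144). Per kilobase of gene length, Mre11a stood at 20.5 CPM in irradiated KPC, Rad50 at 3.22 and Nbn at 2.43, so the mRNAs of the complex were not at equal levels.

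Rbbp8 encodes CtIP, which starts end resection with MRN. It had 4.76, 6.51 and 4.80 CPM after 8 Gy, against 3.70, 3.11 and 3.15 CPM in the controls in KPC (0.70 ± 0.22, adjusted p = 0.00954). MB49 libraries had 6.16, 5.74 and 9.70 CPM after 8 Gy, against 9.01, 10.8 and 10.8 CPM in the controls (-0.50 ± 0.20, adjusted p = 0.039). The KPC libraries did not overlap, whereas 1 irradiated MB49 library reached into the MB49 control range. The KPC call was lost without KPC 8 Gy replicate 2 (log2 fold change 0.53, adjusted p = 0.0622). The MB49 call was lost without any 1 of MB49 8 Gy replicates 1 or 2 or MB49 control replicates 2 or 3 (log2 fold changes -0.36 to -0.46, adjusted p 0.0733 to 0.171), and without MB49 8 Gy replicate 3 the log2 fold change was -0.77. Exo1, the exonuclease of long resection, fell in both lines, with 2.47, 1.59 and 2.10 CPM after 8 Gy, against 6.47, 6.38 and 7.55 CPM in the controls in MB49 (-1.73 ± 0.20, adjusted p = 7.99e-07). KPC libraries had 2.78, 2.56 and 2.23 CPM after 8 Gy, against 3.87, 4.15 and 3.72 CPM in the controls (-0.63 ± 0.20, adjusted p = 0.0107). Wrn, the Werner helicase, rose in MB49, with 8.94 ± 1.52 CPM after 8 Gy and 4.11 ± 1.10 CPM in controls (1.12 ± 0.21, adjusted p = 0.000158), and had 7.91 ± 1.46 CPM after 8 Gy and 5.63 ± 0.281 CPM in controls in KPC (0.49 ± 0.21, adjusted p = 0.0468). The KPC call for Wrn was lost without any 1 of MB49 8 Gy replicates 1 or 2, MB49 control replicate 1, KPC 8 Gy replicates 2 or 3 or KPC control replicates 1, 2 or 3 (log2 fold changes 0.36 to 0.53, adjusted p 0.0521 to 0.196). Blm, the Bloom helicase, had 6.31 ± 0.554 CPM after 8 Gy and 5.20 ± 0.687 CPM in controls in KPC (0.28 ± 0.20, adjusted p = 0.225) and 7.50 ± 1.99 CPM after 8 Gy and 7.30 ± 0.920 CPM in controls in MB49 (0.04 ± 0.19, adjusted p = 0.863).

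Homologous recombination held the largest rise of all members. Rad54l, a motor protein of strand invasion, had 14.5, 16.8 and 13.8 CPM after 8 Gy, against 2.62, 2.96 and 2.94 CPM in the controls in KPC (2.40 ± 0.16, adjusted p = 6.81e-10). In MB49 it had 15.1, 17.1 and 14.2 CPM after 8 Gy, against 4.80, 4.80 and 5.42 CPM in the controls (1.63 ± 0.15, adjusted p = 4.58e-08). The irradiated libraries of the lines overlapped each other, and the KPC controls lay below the MB49 controls. Of the 10 genes of this pathway, 6 rose and 1 fell in KPC, beside 31.3% and 32.0% of all genes. In MB49 3 rose and 2 fell, beside 35.3% and 31.6%.

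Brca1 and its partner Bard1 form the ubiquitin ligase that promotes recombination. Brca1 had 11.2, 12.1 and 13.04 CPM after 8 Gy, against 3.20, 4.60 and 3.80 CPM in the controls in KPC (1.64 ± 0.18, adjusted p = 5.34e-07). MB49 libraries had 10.5, 8.05 and 10.4 CPM after 8 Gy, against 6.97, 8.17 and 5.94 CPM in the controls (0.45 ± 0.18, adjusted p = 0.0328). Irradiated KPC libraries were all above the KPC controls, and the MB49 libraries overlapped. Bard1 had 21.98, 23.3 and 22.9 CPM after 8 Gy, against 7.20, 6.92 and 8.66 CPM in the controls in KPC (1.58 ± 0.13, adjusted p = 1.38e-08). MB49 libraries had 17.1, 17.5 and 17.4 CPM after 8 Gy, against 15.1, 15.2 and 13.2 CPM in the controls (0.26 ± 0.13, adjusted p = 0.0826). Bard1 libraries did not overlap in either line. The MB49 call for Brca1 was lost without any 1 of MB49 8 Gy replicates 1 or 3, MB49 control replicates 1 or 3 or KPC control replicate 1 (log2 fold changes 0.34 to 0.44, adjusted p 0.0753 to 0.117). Brca2, a mediator of strand exchange, did not follow them. It had 1.74, 2.00 and 1.66 CPM after 8 Gy, against 2.75, 2.73 and 1.96 CPM in the controls in KPC (-0.46 ± 0.26, adjusted p = 0.132). MB49 libraries had 3.34, 2.46 and 2.85 CPM after 8 Gy, against 5.99, 6.93 and 3.73 CPM in the controls (-0.95 ± 0.24, adjusted p = 0.0021). Palb2, the bridge between BRCA1 and BRCA2, had 2.68 ± 0.872 CPM after 8 Gy and 1.54 ± 0.232 CPM in controls in KPC (0.81 ± 0.26, adjusted p = 0.0128) and 2.83 ± 0.573 CPM after 8 Gy and 2.78 ± 0.0457 CPM in controls in MB49 (0.03 ± 0.25, adjusted p = 0.927). The KPC call for Palb2 was lost without any 1 of KPC 8 Gy replicate 1 or KPC control replicate 2 (log2 fold changes 0.55 to 0.69, adjusted p 0.0627 to 0.109).

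The recombination factors Rad51b and Xrcc2 went different ways. Rad51b rose in both lines, with 8.73, 10.2 and 8.81 CPM after 8 Gy, against 4.66, 3.48 and 4.25 CPM in the controls in KPC (1.17 ± 0.18, adjusted p = 2.35e-05). MB49 libraries had 5.41, 5.84 and 5.64 CPM after 8 Gy, against 2.76, 2.02 and 1.95 CPM in the controls (1.32 ± 0.19, adjusted p = 1.02e-05). Irradiated Rad51b libraries lay above the controls of their line. Xrcc2 fell in both, with 5.41, 5.72 and 6.35 CPM after 8 Gy, against 10.9, 9.28 and 11.1 CPM in the controls in KPC (-0.84 ± 0.15, adjusted p = 0.000107). MB49 libraries had 7.31, 7.52 and 6.20 CPM after 8 Gy, against 13.7, 13.6 and 12.3 CPM in the controls (-0.91 ± 0.15, adjusted p = 3.69e-05). Irradiated Xrcc2 libraries lay below them. Rad51c had 4.93 ± 0.574 CPM after 8 Gy and 4.03 ± 0.435 CPM in controls in KPC (0.29 ± 0.18, adjusted p = 0.173) and 3.26 ± 0.260 CPM after 8 Gy and 3.14 ± 0.208 CPM in controls in MB49 (0.05 ± 0.19, adjusted p = 0.83), and Xrcc3 had 7.91 ± 0.173 CPM after 8 Gy and 9.34 ± 0.101 CPM in controls in KPC (-0.24 ± 0.13, adjusted p = 0.126) and 10.7 ± 0.423 CPM after 8 Gy and 9.51 ± 0.383 CPM in controls in MB49 (0.17 ± 0.13, adjusted p = 0.254). Rad52, an annealing factor, had 16.4 ± 1.04 CPM after 8 Gy and 13.2 ± 1.63 CPM in controls in KPC (0.32 ± 0.12, adjusted p = 0.0335) and 21.7 ± 0.534 CPM after 8 Gy and 23.1 ± 1.01 CPM in controls in MB49 (-0.09 ± 0.12, adjusted p = 0.55). Its KPC call was lost without any 1 of KPC 8 Gy replicates 1, 2 or 3 or KPC control replicates 2 or 3 (log2 fold changes 0.24 to 0.35, adjusted p 0.054 to 0.165), and with library totals alone its log2 fold change was -0.062.

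Non-homologous end joining was split within itself in both lines. The Ku subunits differed: Xrcc6 (Ku70) had 43.0, 40.6 and 37.1 CPM after 8 Gy, against 77.2, 85.3 and 83.0 CPM in the controls in KPC (-1.02 ± 0.11, adjusted p = 3.44e-07). MB49 libraries had 52.8, 51.6 and 50.5 CPM after 8 Gy, against 62.3, 68.5 and 74.6 CPM in the controls (-0.41 ± 0.11, adjusted p = 0.00328). Every irradiated Xrcc6 library was below every control of its line. Xrcc5 (Ku80) had 13.5, 15.7 and 13.2 CPM after 8 Gy, against 12.6, 12.4 and 13.5 CPM in the controls in KPC (0.14 ± 0.17, adjusted p = 0.502). MB49 libraries had 9.26, 7.67 and 12.9 CPM after 8 Gy, against 9.08, 11.4 and 10.8 CPM in the controls (-0.07 ± 0.17, adjusted p = 0.75). Xrcc5 libraries overlapped in both lines. Lig4, the ligase of the pathway, had 0.794, 0.911 and 0.458 CPM after 8 Gy, against 2.62, 1.87 and 2.12 CPM in the controls in KPC (-1.58 ± 0.34, adjusted p = 0.000585). MB49 libraries had 1.21, 1.40 and 2.66 CPM after 8 Gy, against 3.05, 3.78 and 2.78 CPM in the controls (-0.85 ± 0.30, adjusted p = 0.0191). Lig4 was among the lowest members, with 45 counts over the irradiated KPC libraries. The MB49 call for Lig4 was lost without any 1 of MB49 8 Gy replicates 1 or 2 or MB49 control replicate 2 (log2 fold changes -0.66 to -0.73, adjusted p 0.0748 to 0.0902), and without MB49 8 Gy replicate 3 its log2 fold change was -1.29.

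Of the end-processing and scaffold factors, Dclre1c and Nhej1 rose in both lines and Xrcc4 in MB49. Dclre1c, the nuclease Artemis, had 5.56 ± 0.771 CPM after 8 Gy and 2.32 ± 0.317 CPM in controls in KPC (1.25 ± 0.23, adjusted p = 0.000116) and 3.33 ± 0.661 CPM after 8 Gy and 2.15 ± 0.496 CPM in controls in MB49 (0.63 ± 0.23, adjusted p = 0.0233). The MB49 call for Dclre1c was lost without any 1 of MB49 8 Gy replicates 2 or 3, MB49 control replicates 1 or 3 or KPC control replicate 1 (log2 fold changes 0.49 to 0.60, adjusted p 0.0505 to 0.101). Nhej1, the scaffold XLF, had 4.67 ± 0.401 CPM after 8 Gy and 3.05 ± 0.302 CPM in controls in KPC (0.61 ± 0.18, adjusted p = 0.00569) and 7.24 ± 0.795 CPM after 8 Gy and 4.85 ± 0.340 CPM in controls in MB49 (0.58 ± 0.17, adjusted p = 0.00559). Xrcc4, the partner of LIG4, had 2.53 ± 0.998 CPM after 8 Gy and 1.98 ± 0.274 CPM in controls in KPC (0.37 ± 0.26, adjusted p = 0.238) and 5.69 ± 1.02 CPM after 8 Gy and 3.42 ± 0.445 CPM in controls in MB49 (0.74 ± 0.24, adjusted p = 0.0133). The MB49 call for Xrcc4 was lost without any 1 of MB49 8 Gy replicate 3 or MB49 control replicate 1 (log2 fold changes 0.58 to 0.63, adjusted p 0.0608 to 0.0678).

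Of the 6 genes of polymerase theta joining, single-strand break and base excision repair, 4 fell and 2 rose in MB49. In KPC 2 fell and 1 rose. The shares of all genes were 31.6% lower and 35.3% higher in MB49, and 32.0% and 31.3% in KPC. Polq, the polymerase of microhomology-mediated joining, had 1.15, 1.16 and 1.73 CPM after 8 Gy, against 4.72, 5.94 and 3.34 CPM in the controls in MB49 (-1.79 ± 0.29, adjusted p = 3.98e-05). KPC libraries had 1.69, 1.73 and 1.26 CPM after 8 Gy, against 1.46, 2.36 and 2.78 CPM in the controls (-0.49 ± 0.30, adjusted p = 0.165). The irradiated MB49 libraries were well below the MB49 controls, and the KPC groups overlapped. Polq values after 8 Gy rest on 81 counts in MB49 and 96 in KPC. Lig3, the ligase of single-strand breaks and of theta joining, had 17.4, 14.7 and 16.8 CPM after 8 Gy, against 60.0, 64.5 and 49.0 CPM in the controls in MB49 (-1.83 ± 0.16, adjusted p = 3.16e-08). KPC libraries had 26.6, 29.8 and 26.9 CPM after 8 Gy, against 34.7, 48.5 and 55.9 CPM in the controls (-0.74 ± 0.16, adjusted p = 0.000566). Xrcc1, the scaffold that stabilises LIG3, rose in both lines, with 104 ± 6.01 CPM after 8 Gy and 40.2 ± 0.947 CPM in controls in KPC (1.38 ± 0.14, adjusted p = 2.36e-07) and 58.8 ± 12.3 CPM after 8 Gy and 38.7 ± 4.65 CPM in controls in MB49 (0.60 ± 0.14, adjusted p = 0.00123). The partners XRCC1 and LIG3 thus moved in opposite directions at the mRNA level in both lines.

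The DNA glycosylases and the endonuclease of base excision repair also differed. Ung, which removes uracil, had 16.6, 15.7 and 18.2 CPM after 8 Gy, against 19.2, 18.1 and 15.9 CPM in the controls in KPC (-0.08 ± 0.14, adjusted p = 0.645). MB49 libraries had 4.09, 3.95 and 4.20 CPM after 8 Gy, against 2.72, 2.27 and 2.47 CPM in the controls (0.71 ± 0.16, adjusted p = 0.000829). MB49 irradiated and control libraries did not overlap, but all 6 lay far under every KPC library. Ogg1, which removes oxidised guanine, fell in both lines, with 10.5 ± 0.794 CPM after 8 Gy and 14.3 ± 1.14 CPM in controls in KPC (-0.44 ± 0.14, adjusted p = 0.00889) and 22.8 ± 2.45 CPM after 8 Gy and 33.6 ± 3.78 CPM in controls in MB49 (-0.56 ± 0.13, adjusted p = 0.00115). Apex1, the endonuclease that cuts at abasic sites, had 63.9 ± 1.51 CPM after 8 Gy and 72.1 ± 8.88 CPM in controls in KPC (-0.18 ± 0.12, adjusted p = 0.212) and 34.8 ± 2.38 CPM after 8 Gy and 51.6 ± 5.66 CPM in controls in MB49 (-0.57 ± 0.12, adjusted p = 0.000537). Per kilobase Apex1 was the most abundant member in every group, at 51.5 CPM after 8 Gy and 58.2 CPM in KPC controls, and at 28.1 CPM after 8 Gy and 41.6 CPM in MB49 controls.

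In translesion synthesis, Rad18, the ligase that ubiquitinates PCNA at blocked forks, moved oppositely in the lines. It had 12.01, 13.3 and 10.7 CPM after 8 Gy, against 7.57, 9.17 and 8.50 CPM in the controls in KPC (0.51 ± 0.16, adjusted p = 0.0115). MB49 libraries had 15.8, 14.3 and 21.5 CPM after 8 Gy, against 23.6, 28.6 and 24.7 CPM in the controls (-0.57 ± 0.16, adjusted p = 0.0039). The groups did not overlap in either line, and the directions were opposite. The KPC call was lost without any 1 of KPC 8 Gy replicate 2 or KPC control replicate 1 (log2 fold changes 0.43 to 0.46, adjusted p 0.051 to 0.0536). Polh, polymerase eta, had 26.3, 23.6 and 20.02 CPM after 8 Gy, against 9.07, 10.97 and 12.8 CPM in the controls in KPC (1.09 ± 0.14, adjusted p = 4.21e-06). MB49 libraries had 22.8, 20.1 and 22.8 CPM after 8 Gy, against 17.1, 18.1 and 17.4 CPM in the controls (0.32 ± 0.14, adjusted p = 0.0547). Polh libraries did not overlap in either line. Polk, polymerase kappa, had 17.2, 20.1 and 14.6 CPM after 8 Gy, against 16.1, 17.5 and 17.8 CPM in the controls in KPC (0.02 ± 0.18, adjusted p = 0.95). MB49 libraries had 24.4, 21.7 and 31.7 CPM after 8 Gy, against 28.9, 36.7 and 23.3 CPM in the controls (-0.19 ± 0.17, adjusted p = 0.336). Polk libraries overlapped in both lines.

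In the Fanconi anaemia pathway of crosslink repair, the central pair rose in both lines. Fancd2, which is ubiquitinated at crosslinks, had 20.2, 20.7 and 19.6 CPM after 8 Gy, against 5.24, 6.10 and 4.94 CPM in the controls in KPC (1.89 ± 0.15, adjusted p = 6.36e-09). MB49 libraries had 15.9, 16.5 and 16.8 CPM after 8 Gy, against 7.88, 9.75 and 7.29 CPM in the controls (0.98 ± 0.14, adjusted p = 1.12e-05). Irradiated libraries lay above the controls in both lines. Its partner Fanci had 13.97 ± 2.67 CPM after 8 Gy and 5.13 ± 0.553 CPM in controls in KPC (1.45 ± 0.18, adjusted p = 1.91e-06) and 11.4 ± 1.94 CPM after 8 Gy and 4.96 ± 0.273 CPM in controls in MB49 (1.19 ± 0.18, adjusted p = 1.57e-05). Among core complex genes, Fanca had 40.7, 40.2 and 42.9 CPM after 8 Gy, against 11.3, 12.2 and 13.9 CPM in the controls in KPC (1.73 ± 0.14, adjusted p = 1.09e-08). MB49 libraries had 20.7, 19.4 and 17.4 CPM after 8 Gy, against 12.6, 10.5 and 8.89 CPM in the controls (0.84 ± 0.14, adjusted p = 4.9e-05). Fanci and Fanca were likewise separated in both lines. Fancc rose in KPC, with 20.2 ± 0.988 CPM after 8 Gy and 10.8 ± 1.44 CPM in controls (0.90 ± 0.13, adjusted p = 1.38e-05), and had 10.7 ± 0.229 CPM after 8 Gy and 10.9 ± 0.475 CPM in controls in MB49 (-0.02 ± 0.13, adjusted p = 0.916). Fancb had 0.748, 0.386 and 1.07 CPM after 8 Gy, against 1.60, 2.02 and 2.04 CPM in the controls in MB49 (-1.35 ± 0.40, adjusted p = 0.00701). KPC libraries had 0.298, 0.737 and 1.09 CPM after 8 Gy, against 0.832, 0.861 and 0.654 CPM in the controls (-0.16 ± 0.43, adjusted p = 0.767), on 42 to 146 counts per group. Fancm, the translocase that anchors the core complex, had 2.01 ± 0.407 CPM after 8 Gy and 2.82 ± 0.576 CPM in controls in KPC (-0.49 ± 0.24, adjusted p = 0.0922) and 1.59 ± 0.291 CPM after 8 Gy and 3.37 ± 0.415 CPM in controls in MB49 (-1.09 ± 0.25, adjusted p = 0.000941).

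The mismatch repair members moved oppositely in both lines. Msh6, which recognises mismatches, had 116, 106 and 124 CPM after 8 Gy, against 30.7, 34.1 and 33.8 CPM in the controls in MB49 (1.81 ± 0.14, adjusted p = 3.71e-09). KPC libraries had 124, 129 and 124 CPM after 8 Gy, against 47.7, 68.5 and 69.2 CPM in the controls (1.02 ± 0.13, adjusted p = 3.52e-06). Pms2, an endonuclease of the pathway, had 5.56 ± 0.736 CPM after 8 Gy and 8.20 ± 0.899 CPM in controls in KPC (-0.56 ± 0.16, adjusted p = 0.00547) and 6.97 ± 0.484 CPM after 8 Gy and 12.002 ± 0.951 CPM in controls in MB49 (-0.78 ± 0.16, adjusted p = 0.000279). Irradiated Msh6 libraries lay above the controls in both lines.

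Nucleotide excision repair held the largest rise in MB49. Ercc5, the endonuclease XPG, had 86.8, 72.3 and 104 CPM after 8 Gy, against 20.4, 22.9 and 23.9 CPM in the controls in MB49 (1.97 ± 0.17, adjusted p = 1.58e-08). KPC libraries had 59.3, 62.8 and 51.7 CPM after 8 Gy, against 19.6, 30.02 and 29.0 CPM in the controls (1.14 ± 0.16, adjusted p = 9.82e-06). The irradiated libraries were the higher ones in both lines. Ercc2, the XPD helicase of TFIIH, moved the other way, with 23.5, 20.4 and 23.7 CPM after 8 Gy, against 51.4, 50.6 and 56.8 CPM in the controls in KPC (-1.23 ± 0.12, adjusted p = 1.43e-07). MB49 libraries had 15.5, 14.2 and 12.8 CPM after 8 Gy, against 46.4, 38.3 and 41.1 CPM in the controls (-1.57 ± 0.13, adjusted p = 8.35e-09). Irradiated Ercc2 libraries were the lower ones in both. Ddb2, the ultraviolet damage sensor, had 5.75, 5.88 and 5.41 CPM after 8 Gy, against 3.27, 3.01 and 2.73 CPM in the controls in MB49 (0.92 ± 0.18, adjusted p = 0.000191). KPC libraries had 9.58, 8.89 and 6.75 CPM after 8 Gy, against 7.11, 7.04 and 7.72 CPM in the controls (0.21 ± 0.16, adjusted p = 0.283). Ddb2 groups were apart in MB49 and overlapped in KPC. Xpc, the helix distortion sensor, had 35.4, 36.4 and 37.2 CPM after 8 Gy, against 34.2, 41.9 and 45.6 CPM in the controls in KPC (-0.16 ± 0.13, adjusted p = 0.293). MB49 libraries had 24.5, 21.6 and 19.1 CPM after 8 Gy, against 22.5, 22.4 and 21.96 CPM in the controls (-0.04 ± 0.13, adjusted p = 0.819). Xpc groups overlapped in both lines. Ercc1, partner of the XPF nuclease, had 24.3 ± 1.01 CPM after 8 Gy and 17.7 ± 3.15 CPM in controls in KPC (0.46 ± 0.15, adjusted p = 0.0129) and 32.6 ± 3.91 CPM after 8 Gy and 39.6 ± 6.01 CPM in controls in MB49 (-0.28 ± 0.15, adjusted p = 0.0996). Its KPC call was lost without KPC control replicate 3 (log2 fold change 0.34, adjusted p = 0.0717). Xpa, the damage verifier, had 3.56 ± 0.229 CPM after 8 Gy and 2.82 ± 0.471 CPM in controls in KPC (0.33 ± 0.21, adjusted p = 0.179) and 4.61 ± 0.368 CPM after 8 Gy and 3.34 ± 0.755 CPM in controls in MB49 (0.47 ± 0.21, adjusted p = 0.0519).

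**Figure D2:**
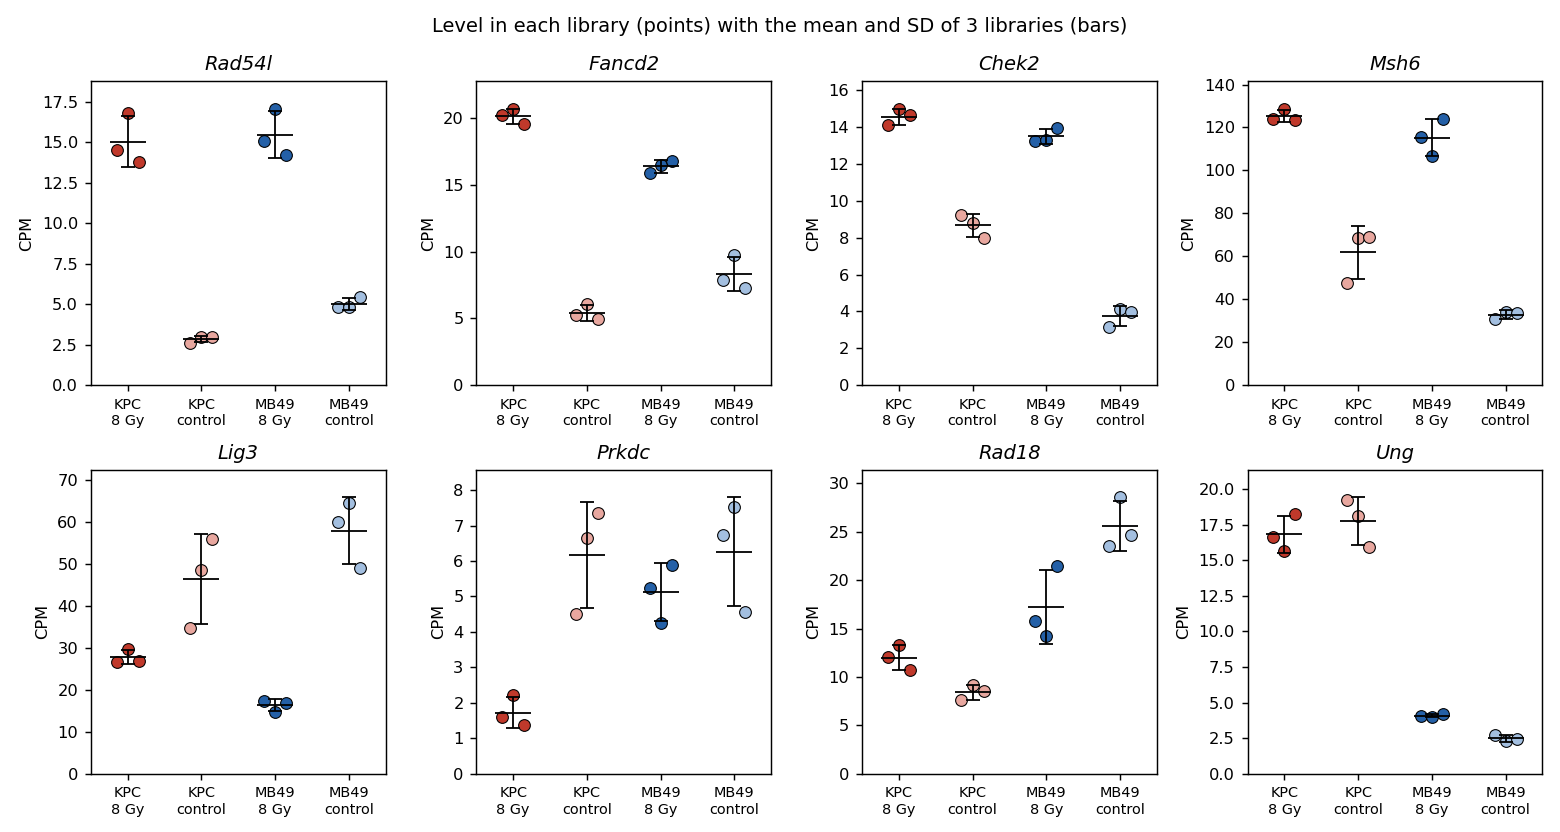
CPM (y axis, from 0) of 8 repair genes in each of the 12 libraries as points, by group along the x axis (KPC 8 Gy, KPC control, MB49 8 Gy, MB49 control), with the mean and SD of 3 libraries as bars. Rad54l, Fancd2, Chek2 and Msh6 were higher after 8 Gy in both lines, Lig3 was lower in both, Prkdc was lower in KPC, Rad18 moved oppositely, and Ung was above 15.6 CPM in every KPC library and at most 4.20 CPM in MB49.

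The set holds 5 members known as targets of p53, some only from work in human cells, namely Xpc, Ddb2, Polk, Polh and Ercc5. In KPC Polh and Ercc5 rose, in MB49 Ddb2 and Ercc5 rose, and none fell in either line. These counts stand beside 31.3% of all genes higher in KPC and 35.3% in MB49. Mdm2, the ligase that degrades p53, had 207 ± 13.8 CPM after 8 Gy and 135 ± 8.68 CPM in controls in KPC (0.62 ± 0.12, adjusted p = 0.000293) and 351 ± 49.0 CPM after 8 Gy and 127 ± 10.99 CPM in controls in MB49 (1.47 ± 0.13, adjusted p = 1.74e-08). Cdkn1a, the inhibitor p21, had 955 ± 70.6 CPM after 8 Gy and 930.1 ± 109 CPM in controls in KPC (0.04 ± 0.13, adjusted p = 0.823) and 884 ± 78.4 CPM after 8 Gy and 496 ± 60.9 CPM in controls in MB49 (0.83 ± 0.13, adjusted p = 2.86e-05). Ccng1, cyclin G1, had 202 ± 37.2 CPM after 8 Gy and 135 ± 6.85 CPM in controls in KPC (0.58 ± 0.15, adjusted p = 0.00326) and 286 ± 59.0 CPM after 8 Gy and 50.4 ± 5.35 CPM in controls in MB49 (2.51 ± 0.16, adjusted p = 5.25e-10). For all 3 the KPC response was called below the MB49 response, with differences of -0.85, -0.79 and -1.93 on the log2 scale. Among the 5 members the difference was called negative for Ddb2 (-0.71) and Ercc5 (-0.82) and positive for Polh (0.77). It was not called for Xpc and Polk. Trp53 mRNA itself fell in both lines, with log2 fold changes of -0.50 in KPC and -0.92 in MB49.

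The responses of the lines were then compared directly, as the KPC log2 fold change minus that of MB49. Of the 56 members, 25 differed with a call, 17 with KPC above MB49 and 8 with KPC below it. Over all genes tested 42.9% were called (20.9% higher, 22.0% lower), beside 44.6% of the members. The members' median difference was 0.36, beside -0.02 over all genes. With an offset for gene length it was 0.26, beside 0.03, and 19 members were higher and 8 lower. The controls of both lines enter this difference with signs opposite to those in the comparison of unirradiated lines below. There the members' median was -0.37, and these comparisons are not independent. The largest positive differences were Bard1 (1.32 ± 0.18, adjusted p = 2.25e-05), Polq (1.30 ± 0.42, adjusted p = 0.0184), Nbn (1.28 ± 0.31, adjusted p = 0.00323), Brca1 (1.19 ± 0.25, adjusted p = 0.00116) and Rbbp8 (1.19 ± 0.30, adjusted p = 0.00372). Bard1 and Nbn rose with a call in KPC and not in MB49, and Polq fell with a call in MB49 and not in KPC. Brca1 rose in both lines, more in KPC, and Rbbp8 rose in KPC and fell in MB49. The Polq call was lost without MB49 control replicate 2 (log2 fold change 1.10, adjusted p = 0.055). The largest negative differences were Prkdc (-1.53 ± 0.35, adjusted p = 0.00213), Chek2 (-1.11 ± 0.21, adjusted p = 0.000391), Ercc5 (-0.82 ± 0.23, adjusted p = 0.00786), Msh6 (-0.79 ± 0.19, adjusted p = 0.0027) and Ung (-0.79 ± 0.21, adjusted p = 0.00602). Prkdc fell with a call in KPC and not in MB49, and Ung rose with a call in MB49 and not in KPC. Chek2, Ercc5 and Msh6 rose in both lines, more in MB49.

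The other calls for the difference fell to several pathways. Positive differences were called for Rnf8 (1.15), Exo1 (1.10), Lig3 (1.09), Rad18 (1.09), Fancc (0.92), Fancd2 (0.91), Atrip (0.90), Fanca (0.88), Rad54l (0.77), Xrcc1 (0.77), Polh (0.77) and Ercc1 (0.74). Negative ones were called for Ddb2 (-0.71), Xrcc6 (-0.62) and Mre11a (-0.39). Of the 3 positive calls in the Fanconi anaemia group, all were for genes that rose in KPC. The Mre11a call was lost without any 1 of MB49 8 Gy replicates 1 or 2, MB49 control replicate 1, KPC 8 Gy replicates 1, 2 or 3 or KPC control replicates 1 or 2 (log2 fold changes -0.31 to -0.40, adjusted p 0.067 to 0.1). The Ddb2 call was lost without any 1 of MB49 8 Gy replicate 2, KPC 8 Gy replicate 3 or KPC control replicates 1 or 3 (log2 fold changes -0.57 to -0.68, adjusted p 0.0509 to 0.0726). Among the 15 genes that rose in both lines, 9 differed in size with a call, and among the 9 that fell in both, 3 did.

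**Figure D3:**
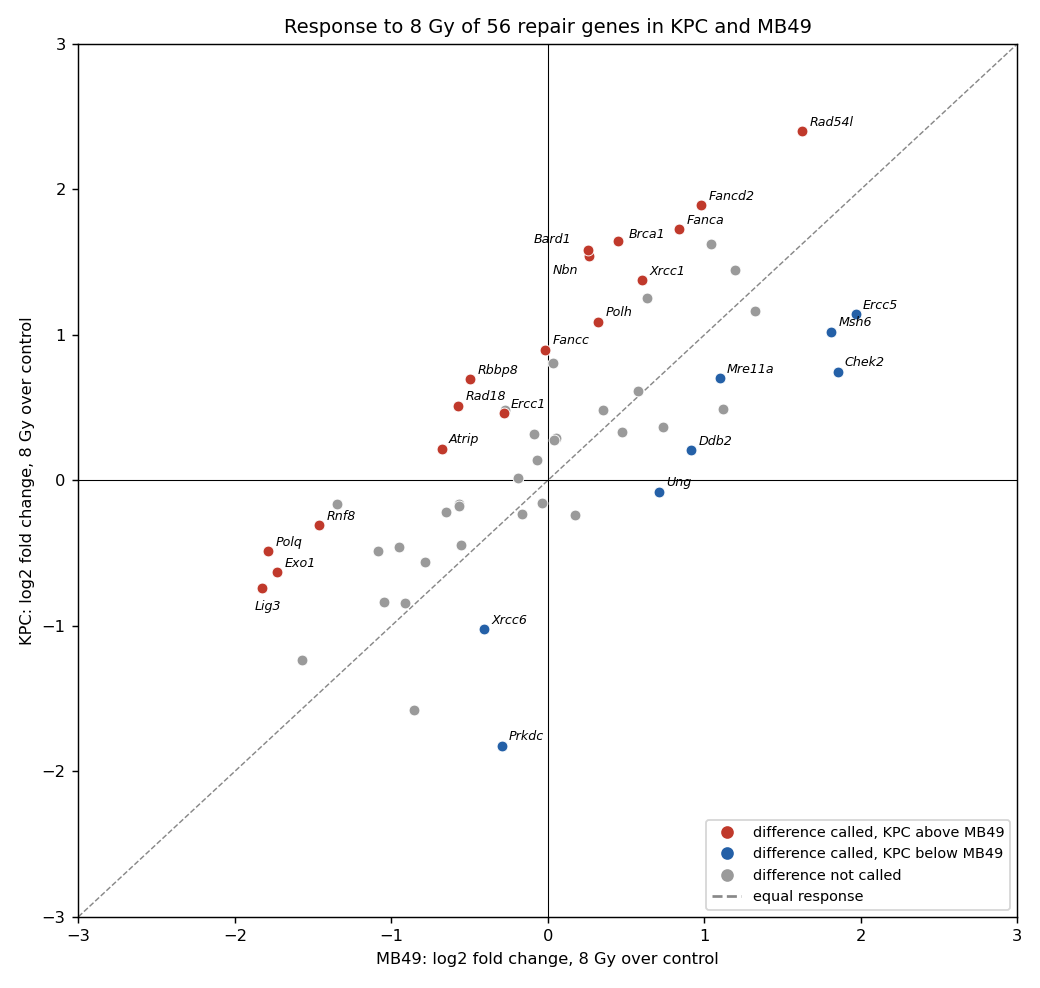
Log2 fold change after 8 Gy in KPC (y axis) against that in MB49 (x axis) for the 56 tested repair genes, 1 point per gene, with the dashed line at equal responses. Red genes lie above the line with a called difference (17) and blue genes below it (8); Rbbp8 and Rad18 lie at the upper left, higher in KPC and lower in MB49.

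Unirradiated cells of the lines already differed in these genes. Of the 56, 10 were higher in KPC controls than in MB49 controls and 27 were lower, with a median of -0.37, beside -0.02 over all genes. With an offset for gene length 14 were higher and 22 lower, with a median of -0.18, beside 0.01 over all genes. In the fit without it, 67.3% of all genes were called (33.0% higher, 34.4% lower), beside 66.1% of the members. Libraries did not overlap in 43 of the 56 members, beside 68.6% of all genes. The largest difference was in Ung, with 19.2, 18.1 and 15.9 CPM in KPC controls, against 2.72, 2.27 and 2.47 CPM in MB49 controls (2.83 ± 0.15, adjusted p = 2.93e-11). Ddb2 had 7.11, 7.04 and 7.72 CPM in KPC controls, against 3.27, 3.01 and 2.73 CPM in MB49 controls (1.28 ± 0.17, adjusted p = 4.43e-06), and Chek2 had 9.24, 8.80 and 8.01 CPM in KPC controls, against 3.12, 4.14 and 3.95 CPM in MB49 controls (1.22 ± 0.15, adjusted p = 1.49e-06). Msh6 was higher in KPC controls by 0.91 (adjusted p = 1.2e-05) and Rad51b by 0.87 (adjusted p = 0.000635) on the log2 scale.

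The 3 lowest genes in KPC controls relative to MB49 controls act in resection, translesion synthesis and fork signalling. Rbbp8 had 3.70, 3.11 and 3.15 CPM in KPC controls, against 9.01, 10.8 and 10.8 CPM in MB49 controls (-1.62 ± 0.21, adjusted p = 2.93e-06). Rad18 had 7.57, 9.17 and 8.50 CPM in KPC controls, against 23.6, 28.6 and 24.7 CPM in MB49 controls (-1.60 ± 0.16, adjusted p = 1.28e-07), and Atr had 2.54, 2.62 and 1.88 CPM in KPC controls, against 8.17, 8.21 and 4.69 CPM in MB49 controls (-1.58 ± 0.27, adjusted p = 6.63e-05). These 3 genes had KPC values under every MB49 value. Nbn (-1.32 ± 0.23, adjusted p = 6.29e-05) and Fancb (-1.26 ± 0.39, adjusted p = 0.00854) came next. By role, 7 of 10 recombination genes were lower and 1 higher, 5 of 7 MRN and resection genes lower and 1 higher, and 3 of 4 chromatin mediators and 3 of 3 translesion genes lower, beside 34.4% of all genes lower. Nucleotide excision repair had 3 higher and 1 lower of 6, and non-homologous end joining 1 higher and 2 lower of 6. The theta and base excision group had 2 higher and 2 lower of 6, the Fanconi anaemia group 2 lower of 6, mismatch repair 1 each way, the sensor kinases 1 lower of 4 and the checkpoint kinases 1 higher of 2. Of the 17 members tied to cycling cells 11 were lower and 2 higher, and of the other 39 members 16 were lower and 8 higher. Proliferation genes stood lower in the same controls for 12 of 22 and higher for 6, with 10.5 ± 2.07 CPM in KPC controls, beside 49.8 ± 2.03 CPM in MB49 controls for Ccna2 (cyclin A2) and 10.7 ± 0.421 CPM in KPC controls, beside 55.9 ± 4.97 CPM in MB49 controls for Ccnb1. The KPC controls enter this comparison and the KPC response with opposite signs, and the MB49 controls enter it and the MB49 response with the same sign, so the comparisons are not independent. Both sets of controls enter the difference between the responses with the opposite sign, so that difference is not independent of this comparison either.

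Some calls between the controls were lost without a single library, or with another setting. The call for Mre11a was lost without any 1 of MB49 control replicate 1 or KPC control replicate 2 (log2 fold changes 0.26 to 0.27, adjusted p 0.0603 to 0.0678) and that of Ercc2 without any 1 of MB49 control replicate 2 or KPC control replicate 3 (log2 fold changes 0.27 to 0.28, adjusted p 0.0739 to 0.0883). The call for Blm was lost without any 1 of MB49 control replicate 2 or KPC control replicates 1 or 3 (log2 fold changes -0.38 to -0.47, adjusted p 0.0842 to 0.132). Rad50 lost its call without any 1 of MB49 8 Gy replicate 1, MB49 control replicates 1 or 2, KPC 8 Gy replicate 1 or KPC control replicates 1, 2 or 3 (log2 fold changes -0.27 to -0.45, adjusted p 0.055 to 0.218), Xrcc2 without any 1 of MB49 8 Gy replicates 1 or 2, MB49 control replicates 1 or 2, KPC 8 Gy replicates 1, 2 or 3 or KPC control replicates 2 or 3 (log2 fold changes -0.26 to -0.38, adjusted p 0.0543 to 0.194), and Xrcc6 without any 1 of MB49 8 Gy replicates 1 or 2, MB49 control replicates 1 or 2, KPC 8 Gy replicates 1, 2 or 3 or KPC control replicates 1, 2 or 3 (log2 fold changes 0.19 to 0.26, adjusted p 0.0501 to 0.183). The offset for gene length ended the control calls of Trp53bp1 (-0.16, adjusted p = 0.168), Rnf8 (-0.28, adjusted p = 0.118), Pms2 (-0.31, adjusted p = 0.0691) and Apex1 (0.20, adjusted p = 0.056), and also those of Rad50, Xrcc2 and Blm. It brought calls for Wrn (0.76), Atm (0.52), Fanca (0.44), Ercc5 (0.40) and Xpa (-0.51). Prkdc, which was not called, turned to 0.47 with it (adjusted p = 0.0264).

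**Figure D4:**
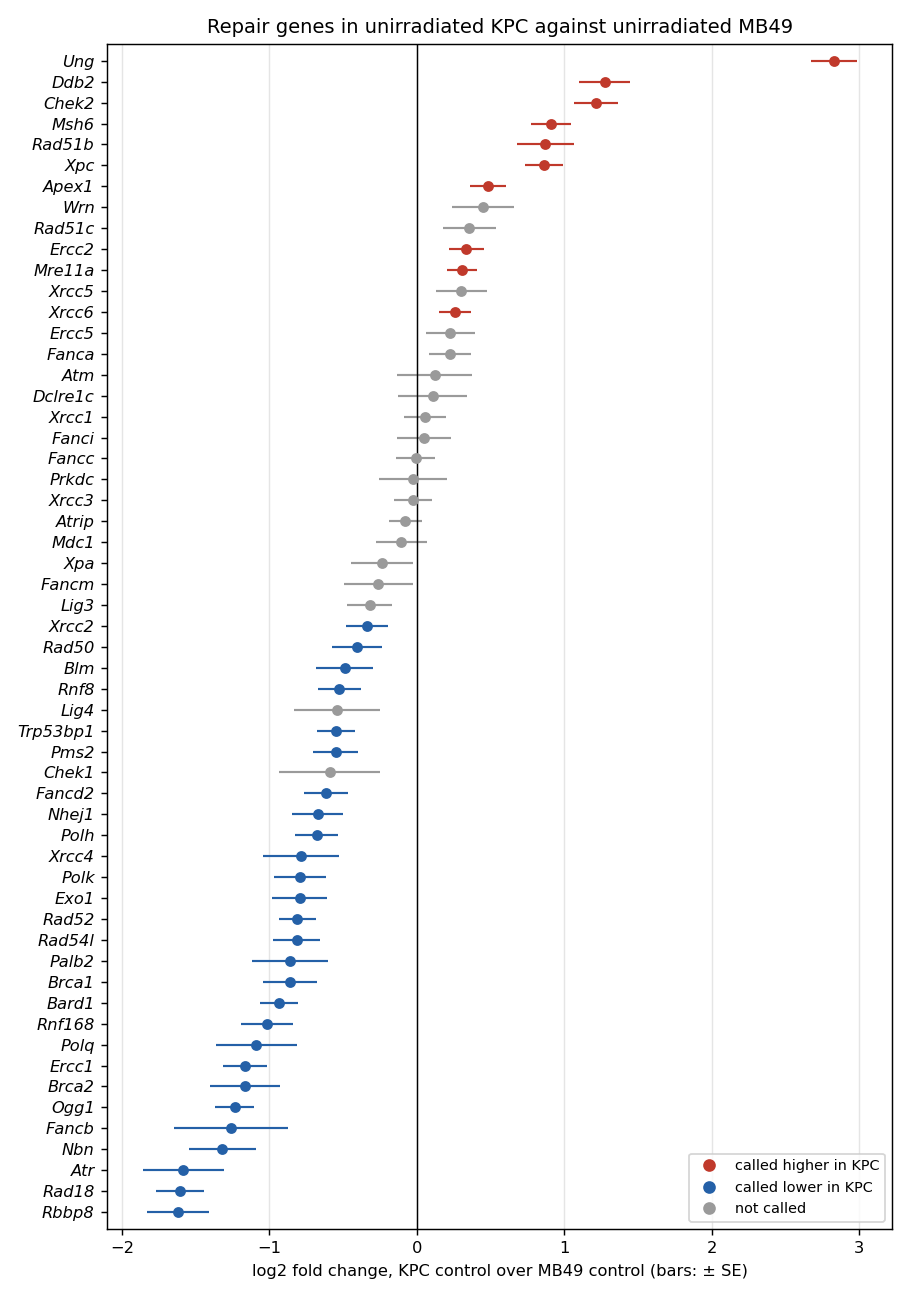
Log2 fold change of KPC controls over MB49 controls (x axis, bars are the SE) for the 56 tested repair genes, 1 gene per row, sorted from the highest to the lowest. Red genes were called higher in KPC controls (10), blue genes lower (27) and grey genes were not called; Ung stands at 2.83 and Rbbp8 at -1.62.

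The levels of the members within a group, per kilobase, spanned a wide range. In irradiated KPC, Apex1 (51.5 CPM per kilobase), Xrcc1 (41.3) and Msh6 (29.5) were the highest and Lig4 (0.143) and Prkdc (0.136) the lowest of those tested. In KPC controls the highest were Apex1 (58.2) and Xrcc6 (38.7) and the lowest was Brca2 (0.236). Irradiated MB49 had Apex1 (28.1), Msh6 (27.1) and Xrcc6 (24.4) at the top and Polq (0.157) at the bottom, and MB49 controls had Apex1 (41.6) and Xrcc6 (32.4) at the top and Atm (0.269) at the bottom. Msh6 stood second after 8 Gy in MB49 and was not among the first 6 in its controls.

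Among all genes tested, gene length moved with the MB49 response, with the difference between the lines and with the difference between controls. Across 8 length classes of all genes tested, the median log2 fold change in MB49 was 0.64 in the shortest class and -0.28 in the longest, and in KPC -0.06 and -0.09. For the KPC minus MB49 difference it was -0.72 in the shortest class and 0.21 in the longest, and between KPC and MB49 controls 0.50 and -0.36. Repair genes are long, with a median of 3487.5 bases beside 2705 for all genes tested. In MB49 the 17 members of 5000 bases or more counted 4 higher and 10 lower (median -0.65), and the 39 shorter members 14 higher and 10 lower (median 0.04). With an offset for length fitted across all genes, the long members counted 6 higher and 8 lower (median -0.32). Over all members the offset gave 21 higher and 18 lower in MB49 (median 0.08). It ended the MB49 calls of Mdc1 (-0.25, adjusted p = 0.104), Rbbp8 (-0.38, adjusted p = 0.0925) and Lig4 (-0.62, adjusted p = 0.0753). It brought calls for Rad50 (0.60), Bard1 (0.52), Polh (0.44) and Ercc1 (-0.52) there. In KPC the long members counted 6 higher and 5 lower (median -0.31), and the shorter 19 higher and 5 lower (median 0.37). With the offset these medians were -0.22 and 0.42. The offset changed 1 KPC call, Atrip, which it brought (0.27). For the difference it ended the call of Ddb2 (-0.50, adjusted p = 0.111) and brought those of Rad52 (0.55), Wrn (-0.84) and Apex1 (0.78). Between the controls the long members counted 0 higher and 11 lower, and with the offset 3 higher and 7 lower. Atm, at 9787 bases, rose in both lines; Brca2, Polq, Fancm, Exo1 and Atr are also long and fell in MB49. No test of length other than that offset was run.

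**Figure D5:**
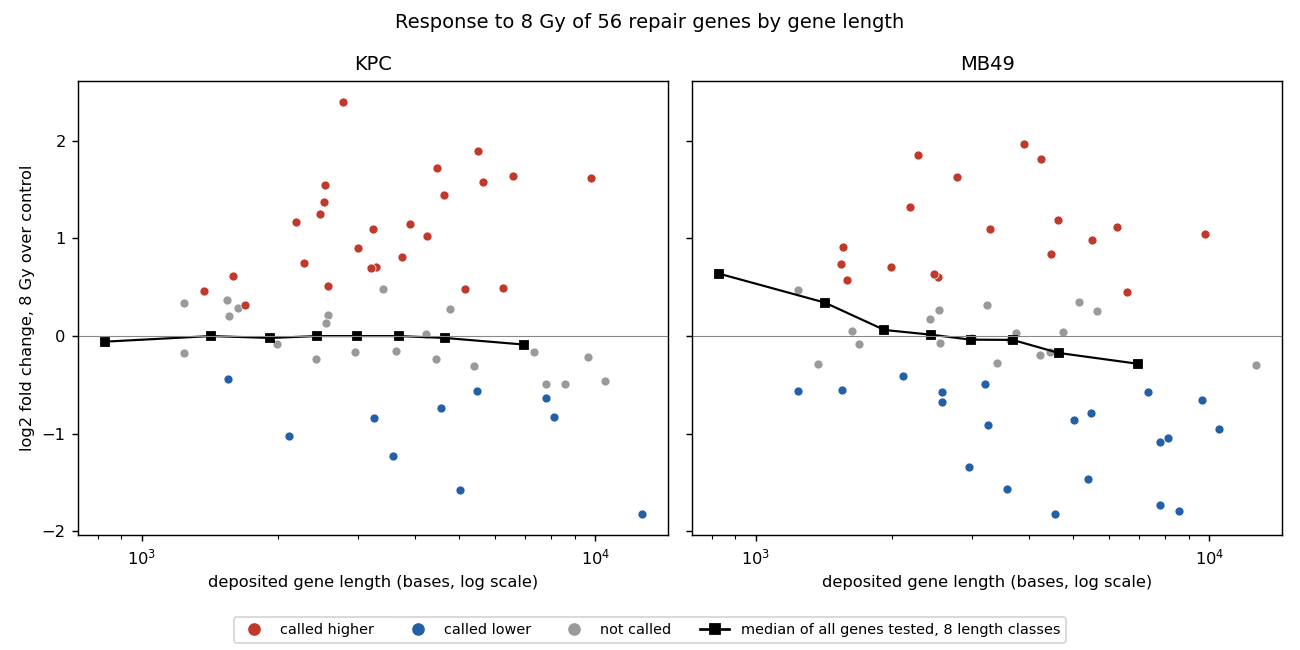
Log2 fold change after 8 Gy (y axis) against deposited gene length in bases (x axis, log scale) for the 56 repair genes, KPC in the left panel and MB49 in the right. Black squares are medians of all genes tested in 8 length classes, which run from 0.64 in the shortest to -0.28 in the longest class in MB49 and stay between -0.09 and 0.00 in KPC.

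A wider list of 111 repair genes outside the set, of which 108 were tested, gave the background of the pathway. In KPC 32 rose and 38 fell (median -0.01), and in MB49 34 rose and 39 fell (median -0.12). These were 29.6% higher and 35.2% lower in KPC, beside 31.3% and 32.0% of all genes. In MB49 they were 31.5% and 36.1%, beside 35.3% and 31.6%. For the difference between the lines 32 were higher and 19 lower (median 0.11), and between the controls 31 were higher and 33 lower. For the difference these were 29.6% and 17.6%, beside 20.9% and 22.0% of all genes. Between the controls they were 28.7% and 30.6%, beside 33.0% and 34.4%. The members' own median in KPC was 0.30. In KPC the largest rises were Fancg (2.11), a core complex gene, Parp3 (1.98), a poly(ADP-ribose) polymerase, Rad54b (1.96), a relative of Rad54l, Rpa1 (1.92), the single-strand binding protein, and Lig1 (1.81), the replicative ligase. The largest falls there were Fancf (-2.97), Tdg (-2.56), Abraxas1 (-2.24), Ercc6 (-2.13) and Dclre1b (-2.01). Tdg has a pseudogene copy, Tdg-ps, and its counts are uncertain for that reason.

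In MB49 the largest rises of the wider list were Mbd4 (2.08), a glycosylase, Cetn2 (2.08), a partner of XPC, Fancg (1.56), Ube2t (1.55), the conjugating enzyme of FANCD2, and Rad51d (1.55), a recombination factor. Among the largest falls were Fancf (-3.24), Dclre1b (-2.55), Gen1 (-2.50) and Eme2 (-2.45). Fancf, a core complex gene, had 1.00 ± 0.310 CPM after 8 Gy and 7.92 ± 0.972 CPM in controls in KPC and 1.43 ± 0.192 CPM after 8 Gy and 13.7 ± 4.66 CPM in controls in MB49. Fancg rose and Fancf fell in both lines.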

How the data were processed

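RNA from 12 libraries (3 per group) was made with TRIzol and a stranded mRNA kit, per the labels' protocols. The authors deposited estimated counts for each gene without scaling, of which 6.20 to 8.65% of values per library were not whole. The submitters' processing notes name fastp, HISAT2, StringTie and GRCm39, with no versions. Which tool counted reads is not stated there. The authors' group means were not used, and the deposited gene length served levels per kilobase and 1 alternative.

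Counts were rounded to whole numbers, and 525 rows with an ID but no symbol (0.184 to 0.449% of counts) stayed in. Genes were filtered with edgeR's filterByExpr (14362 kept) and scaled by TMM (factors 0.829 to 1.18), and CPM uses these factors. edgeR's quasi-likelihood test (edgeR 4.0.16 in R 4.3.3, robust, 1 coefficient per group, 8 residual degrees of freedom, 2-sided) gave 4 comparisons, adjusted by Benjamini-Hochberg over all genes tested and called under 0.05. The SE was taken from the log2 fold change and F. Differences between groups of 3 libraries cover the spread between libraries. The scripts were tested on simulated data. The members and lists were chosen with earlier results of these data known. Library values are given for set anchors and for the 5 largest rises and 5 largest falls among called members with at least 1 CPM in either group of each comparison, and other repair genes by the same ranking, of which 1 is not reported here. Alternatives were DESeq2 1.42.0 size factors and test, library totals, 2 filters, length offsets, a replicate block, the compared libraries alone, and leaving out each library.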

Additional observations from a re-analysis of the deposited data

Results flagged for a closer look

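The 25 members below were picked out because the KPC response to 8 Gy differed from the MB49 response by a test of the difference itself, fitted over all genes with edgeR; 42.9% of all genes tested passed the same test. Differences are KPC minus MB49, on the log2 scale. The control libraries of both lines enter them, so they are not independent of the differences between unirradiated lines. Above the MB49 response were Bard1 (1.32), Polq (1.3), Nbn (1.28), Brca1 (1.19), Rbbp8 (1.19), Rnf8 (1.15), Exo1 (1.1), Lig3 (1.09), Rad18 (1.09), Fancc (0.92), Fancd2 (0.91), Atrip (0.9), Fanca (0.88), Rad54l (0.77), Xrcc1 (0.77), Polh (0.77) and Ercc1 (0.74).

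Below the MB49 response were Prkdc (-1.53), Chek2 (-1.11), Ercc5 (-0.82), Msh6 (-0.79), Ung (-0.79), Ddb2 (-0.71), Xrcc6 (-0.62) and Mre11a (-0.39).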

How the results depend on the processing

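Over 20 or 21 alternatives per comparison, 4411 of 4648 values of single members kept call and direction or stayed without a call. Values that stayed without a call were not compared for direction. Of the rest, 154 lost the call, 80 gained it and 3 reversed. With library totals in place of TMM scaling, the median of the members was -0.33 in MB49 and -0.078 in KPC, 21 members were lower in KPC and Rad52 reversed to -0.062 there (adjusted p = 0.681). Without a filter on low counts 5 members, not 8, were lower in the difference. With offsets for gene length the median between controls was -0.18 and Prkdc reversed to 0.47 between controls; with the replicate block added as well these were -0.18 and 0.46. The replicate block alone counted 23 higher and 10 lower in KPC, 18 and 19 in MB49, 17 and 7 for the difference, and 9 and 25 between controls, so no count moved by over 1.5 times. The cause of the changed values was not tested. Beside calls named with the results, library totals ended the calls of Brca1, Xrcc4, Nhej1 and Dclre1c in MB49, of Rad50, Rbbp8, Palb2, Nhej1, Wrn, Ercc1 and Rad18 in KPC, and of Rad50 and Xrcc6 between controls. Without a filter, Brca1, Nhej1 and Dclre1c lost theirs in MB49, Rad52 in KPC, Mre11a, Ddb2 and Ung for the difference, and Mre11a, Xrcc2, Xrcc6 and Ercc2 between controls. The block ended those of Rbbp8 in MB49, Rad52 and Wrn in KPC, Mre11a for the difference, and Rad50, Xrcc2 and Xrcc6 between controls. The compared libraries alone ended those of Brca1 and Dclre1c in MB49 and Xrcc2 and Xrcc6 between controls. DESeq2 size factors ended those of Mre11a for the difference and Xrcc2 between controls. Deviations of same-numbered libraries correlated between -0.24 and 0.17, so no strong shared deviation was seen. Whether same-numbered libraries were handled together cannot be told from these correlations. Leaving out each library in turn gave 20 to 25 members higher and 9 to 10 lower in KPC (median 0.24 to 0.38), 15 to 20 and 18 to 21 in MB49 (median -0.12 to 0.01), 16 to 20 and 6 to 8 for the difference (median 0.30 to 0.42), and 8 to 10 and 24 to 28 between controls (median -0.46 to -0.30). Depth limits the genes with few counts, such as Lig4, Fancb and Polq. Counting intervals were not computed.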

Other observations

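The genes given first lie outside the members and were chosen after their values were seen. Core genes of the 9-1-1 clamp and its loader, which activate ATR at damaged DNA, had log2 fold changes of -1.12 in KPC and -0.52 in MB49 for Rad9a, -1.48 and -0.74 for Rad1, -1.30 and -0.85 for Hus1, and -1.35 and -1.44 for Rad17, the loader. All 8 of these changes were called. The clamp paralog Rad9b fell in KPC (-1.83 ± 0.48, adjusted p = 0.00323) and had -0.36 in MB49 (adjusted p = 0.336). Other genes of ATR signalling did not share the direction: Clspn and Etaa1 were called in neither line, and Timeless rose in KPC (0.79) and fell in MB49 (-0.33). H2ax, the histone variant that is phosphorylated around breaks, had 14.5 ± 2.87 CPM after 8 Gy and 46.7 ± 1.52 CPM in controls in KPC (-1.69 ± 0.19, adjusted p = 5.19e-07) and 9.68 ± 2.11 CPM after 8 Gy and 42.4 ± 10.7 CPM in controls in MB49 (-2.13 ± 0.19, adjusted p = 3.74e-08). Topbp1, an ATR activator, rose by 1.38 in KPC and 0.73 in MB49.

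The genes below were also chosen after their values were seen. Wee1, the kinase that restrains entry into mitosis, had 28.2 ± 2.01 CPM after 8 Gy and 10.1 ± 0.795 CPM in controls in KPC (1.48 ± 0.13, adjusted p = 2.49e-08) and 16.1 ± 1.06 CPM after 8 Gy and 19.05 ± 1.93 CPM in controls in MB49 (-0.24 ± 0.13, adjusted p = 0.102), with a difference between responses of 1.73 ± 0.18, adjusted p = 1.3e-06. Nthl1, a glycosylase for oxidised pyrimidines, moved oppositely in the lines, with 9.43 ± 0.289 CPM after 8 Gy and 15.2 ± 1.32 CPM in controls in KPC (-0.69 ± 0.18, adjusted p = 0.00297) and 9.91 ± 1.12 CPM after 8 Gy and 3.64 ± 1.14 CPM in controls in MB49 (1.45 ± 0.19, adjusted p = 3.62e-06). Rpa3, a subunit of the single-strand binding complex, differed between responses by -1.65, while its partner Rpa1 rose in both lines and differed by 0.57.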
